A study of Mus musculus with 11 samples.

Results

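The AMPA receptor pore subunits are the products of 4 genes, Gria1, Gria2, Gria3 and Gria4, and they were chosen by name, as the rows with these symbols in every count table of the series. All 4 were present, among 24421 gene symbols in all, and all 4 passed the filter on low counts that left 15713 genes for testing. In the hippocampus of mice whose mothers received particulate matter (PM) while pregnant, read counts of each of the 4 genes were lower than in vehicle controls, by 1.33-fold for Gria1 and by 1.61- to 1.77-fold for the other 3. With all libraries fitted together, none of the 4 was still lower past the test's threshold once a trend with transcript length and base composition was removed. Gria2 was then higher, but not where the trend was fitted on the coding sequence. In the first set of libraries, described below, Gria4 was still lower past the threshold.

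The study sequenced RNA from frozen hippocampus of mice aged 14 to 18 weeks, born on pregnancy day 21 to mothers that had been given PM or normal saline through the nose at 3 points of pregnancy, days 9, 12 and finally 15. PM was given at 200 µg per kg to the PM group (6 libraries), and normal saline to the vehicle group (5 libraries). The title places NMDA receptors of the offspring hippocampus at the centre of the study. The libraries fall into 2 sets, since the library numbers in the labels restart: replicates 1 to 3 of each group form the first set, and vehicle replicates 4 and 5 with PM replicates 4 to 6 form the second. No strain, genotype, litter or number of animals per library is named in the labels. Where samples are not known to be separate animals, the p-values speak of the spread between samples alone, and that spread may be technical. For the vehicle replicates of the second set the labels disagree: the treatment field names normal saline, while a protocol field attached to that whole set names PM at its dose. The treatment field was used.

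AMPA receptors are glutamate-gated cation channels that carry most fast excitatory transmission in the brain, and each channel is an assembly of GluA1 to GluA4 subunits, encoded by Gria1 to Gria4. In hippocampal pyramidal neurons, GluA1 with GluA2 and GluA2 with GluA3 are the common assemblies, and changes in the number of synaptic AMPA receptors underlie well-studied forms of synaptic plasticity. GluA2 sets the permeability of the channel to calcium, because its RNA is edited at a glutamine codon in the pore loop to one read as arginine (the Q/R site), and channels that hold the edited subunit let little calcium through.

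Stretches of coding sequence around this codon are shown for the 4 genes, because a count per gene cannot show editing at it. Each was read from the GENCODE M21 transcripts on GRCm38, the assembly also called mm10, runs 5′ to 3′ on the coding strand for 47 bases, lies within 1 coding exon, and has the Q/R site codon in capitals.
Gria1, chr11:57243072-57243118, plus strand, exon 11 of 16: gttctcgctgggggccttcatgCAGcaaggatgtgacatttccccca
Gria2, chr3:80706889-80706935, minus strand, exon 11 of 16: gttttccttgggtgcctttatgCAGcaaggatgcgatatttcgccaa
Gria3, chrX:41610243-41610289, plus strand, exon 11 of 16: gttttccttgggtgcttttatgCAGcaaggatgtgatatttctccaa
Gria4, chr9:4464115-4464161, minus strand, exon 12 of 17: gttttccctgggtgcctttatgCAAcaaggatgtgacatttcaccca

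Over these 47 bases Gria3 shared 44, Gria4 41 and Gria1 38 with Gria2. The genome carries a glutamine codon in all 4 genes, written CAG in Gria1, Gria2 and Gria3 and CAA in Gria4. Editing changes single bases within reads, so counts per gene hold no information on it, and it was not measured here. Over the whole coding sequence the 4 genes were 68.7% to 72.8% identical in pairs, and the longest exact run of bases shared by any transcripts of a pair was 35 to 59 bases. These runs are shorter than the reads named in the labels.

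The genes themselves are large. On GRCm38, Gria1 spans chr11:57011387-57330244 on the plus strand, Gria2 chr3:80681450-80802835 on the minus strand, Gria3 chrX:41400854-41678601 on the plus strand and Gria4 chr9:4417896-4796234 on the minus strand. Their longest annotated transcripts are 5546, 10371, 5206 and 5441 bases long in that order, with GC contents of 48.5%, 36.8%, 39.8% and 44.3%. Coding lengths lie close together, at 2721, 2649, 2664 and 2706 bases. Gria2 thus stands apart in its untranslated sequence, not in its coding length. No annotated gene on the opposite strand overlaps their exons, so no annotated antisense gene shares their exonic reads. The sources used here give no strand setting for the counting.

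Vehicle libraries held between 6012116 and 12496651 counts over genes, and PM libraries between 10938521 and 17763893. In vehicle libraries 60.9% to 62.0% of all counts had no annotated feature, and in PM libraries 18.8% to 34.0%, so the groups differed in library composition as well as in treatment, and the part of this difference in the results was not tested. Of the 15713 genes tested, 68.4% passed an adjusted p of 0.05 between PM and vehicle (edgeR quasi-likelihood test, Benjamini-Hochberg adjustment), 34.3% as lower and 34.1% as higher. Markers of hippocampal neurons were present in every library, among them Slc17a7, the glutamate transporter of excitatory synaptic vesicles, at 879 to 1077 CPM (counts relative to a common library size, scaled by TMM) in vehicle and 1161 to 1970 CPM in PM, and Prox1, a transcription factor of dentate granule cells, at 115 to 163 and 27.4 to 49.4 CPM.

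All 4 members were called lower in PM, against the 34.3% of tested genes called lower. For each of them every PM library lay below every vehicle library, which 26.1% of tested genes did. In bulk tissue, fewer cells of a type and less RNA per cell cannot be told apart. The plot of CPM by library shows both groups for each gene.

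**Figure D1:**
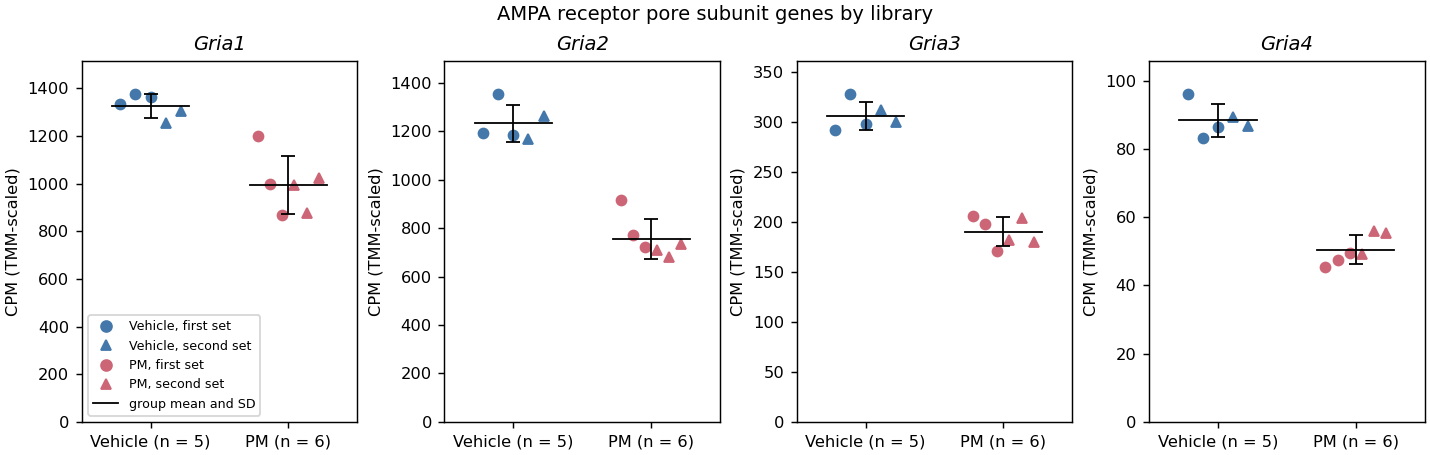
TMM-scaled CPM of Gria1, Gria2, Gria3 and Gria4 in each library, vehicle in blue and PM in red, first set as circles and second set as triangles, with the group mean and SD (n = 5 and 6); each axis starts at 0. All PM libraries lie below all vehicle libraries for each gene, with the narrowest gap relative to its level for Gria1, whose lowest vehicle library was at 1253 CPM and highest PM library at 1200 CPM.

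Gria1 encodes GluA1, the subunit whose phosphorylation and insertion into synapses have been studied most in hippocampal plasticity. Its level was 1333, 1377 and 1364 CPM in vehicle replicates 1 to 3 and 1253 and 1307 CPM in replicates 4 and 5. In PM replicates 1 to 3 it was 1200, 998 and 867 CPM, and in replicates 4 to 6 it was 995, 876 and 1024 CPM. The vehicle libraries were close together, and PM replicate 1 was nearest to them. The means were 1327 ± 49.3 CPM in vehicle (SD, n = 5) and 993 ± 121 CPM in PM (SD, n = 6). Gria1 fell 1.33-fold (log2 fold change -0.41, SE 0.087, edgeR adjusted p = 0.000805), lower in 6 of 6 PM libraries, and 33.6% of tested genes had a lower log2 fold change than this.

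Gria2 encodes GluA2, the subunit edited at the Q/R site shown above. It was at 1194, 1354 and 1184 CPM in vehicle replicates 1 to 3, and at 1167 and 1262 CPM in replicates 4 and 5. PM replicates 1 to 3 had 916, 771 and 721 CPM, and replicates 4 to 6 had 709.6, 682 and 733 CPM. The groups were well apart, and PM replicate 1 was again the highest of its group. From 1232 ± 77.0 CPM in vehicle (SD, n = 5) to 755 ± 83.8 CPM in PM (SD, n = 6), Gria2 fell 1.62-fold (log2 fold change -0.70, SE 0.082, edgeR adjusted p = 4.355e-06), with 24.6% of tested genes below it.

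Gria3 encodes GluA3, which pairs with GluA2 in receptors that cycle at synapses without strong stimulation. Vehicle replicates 1 to 3 had 292, 328 and 298 CPM, and replicates 4 and 5 had 312 and 299 CPM. The PM values were 206, 198 and 171 CPM in replicates 1 to 3 and 182, 204 and 180 CPM in replicates 4 to 6. Both groups were narrow and the lowest vehicle library stood 86.1 CPM above the highest PM library. The vehicle mean was 306 ± 14.4 CPM (SD, n = 5) and the PM mean 190.1 ± 14.5 CPM (SD, n = 6), so Gria3 fell 1.61-fold (log2 fold change -0.68, SE 0.079, edgeR adjusted p = 3.599e-06).

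Gria3 is on the X chromosome, and the libraries differed in sex-linked RNA. Xist, the RNA of the inactive X, was at 2402 and 2241 CPM in vehicle replicates 4 and 5, at 218 CPM in PM replicate 3 and at 899 CPM in PM replicate 6, and at most 17.3 CPM in the other 7 libraries. The summed level of 4 Y-linked genes (Ddx3y, Eif2s3y, Kdm5d and Uty) was 0 to 0.0753 CPM in those 4 libraries and 135 to 215 CPM in the rest. Gria3 in the vehicle libraries with high Xist, 312 and 299 CPM, lay inside the range of the other vehicle libraries. In PM the libraries with high Xist had 171 and 180 CPM of Gria3, the lowest of the 6. Neither set held both kinds of vehicle library, so sex-linked RNA and the set cannot be told apart there.

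Gria4 encodes GluA4, the subunit that is prominent in parvalbumin interneurons and early in development, and it had the lowest log2 fold change of the 4. It was at 96.1, 83.2 and 86.3 CPM in vehicle replicates 1 to 3 and at 89.5 and 86.6 CPM in replicates 4 and 5. PM replicates 1 to 3 were at 45.5, 47.4 and 49.6 CPM and replicates 4 to 6 at 49.3, 55.9 and 55.4 CPM. PM replicate 1, the highest PM library for each of the other 3 genes, was the lowest for Gria4. Vehicle libraries averaged 88.3 ± 4.88 CPM (SD, n = 5) against 50.5 ± 4.24 CPM in PM libraries (SD, n = 6), and Gria4 fell 1.77-fold (log2 fold change -0.82, SE 0.079, edgeR adjusted p = 6.244e-07). Vehicle libraries held 552 to 1243 counts of it and PM libraries 639 to 777, which put the counting error at 3.33% and 3.77% of the mean, below its spread of 5.53% and 8.40% between libraries.

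For the other 3 genes counting error was smaller still, from 0.845% of the mean for Gria1 to 1.93% for Gria3 in PM libraries. The spread between libraries therefore set the precision. For Gria1 it was 3.72% of the mean in vehicle and 12.2% in PM, and for Gria2 6.25% and 11.1%. Summed over the 4 genes, the level was 2953 ± 117 CPM in vehicle (2822 to 3142) and 1989 ± 204 CPM in PM (1808 to 2366), so the highest PM library stayed below the lowest vehicle library.

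The change was present in both sets when each was fitted with its own PM effect. In the first set the log2 fold changes were -0.41 for Gria1 (SE 0.106), -0.63 for Gria2 (SE 0.098), -0.67 for Gria3 (SE 0.095) and -0.90 for Gria4 (SE 0.089). In the second set they were -0.41 (SE 0.118), -0.78 (SE 0.108), -0.70 (SE 0.105) and -0.72 (SE 0.0999). All 8 values passed the threshold, with edgeR adjusted p from 1.327e-07 for Gria4 in the first set to 0.00631 for Gria1 in the second. Of tested genes 70% passed in the first set, 35.2% as lower, while 63.2% passed in the second, 32.3% as lower, and 24.4% of tested genes were called lower in both, as all 4 members were. Both vehicle libraries of the second set were high in Xist, while PM replicates 4 and 5 had Y-linked RNA instead. Sex-linked RNA thus went largely with treatment in that set, and its part in the values of the 4 genes was not tested. Without vehicle replicate 5, which leaves 1 vehicle library in the second set whose spread is taken from the other groups, Gria1 had a log2 fold change of -0.38 there (edgeR adjusted p = 0.0579).

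The size of the PM effect in the second set minus that in the first was tested as a contrast of its own, which 30.9% of tested genes passed. It was 0.00 for Gria1 (SE 0.159, edgeR adjusted p = 0.993), -0.15 for Gria2 (SE 0.147, edgeR adjusted p = 0.477), -0.02 for Gria3 (SE 0.142, edgeR adjusted p = 0.922) and 0.18 for Gria4 (SE 0.135, edgeR adjusted p = 0.323). A difference between the sets was thus not detectable for any of the 4 at this spread in this fit. In simulated counts this contrast recovered 2.02% of 1.5-fold and 23.2% of 2-fold differences, so a true difference could be missed. The difference of Gria4 passed once a trend in transcript length and base composition was removed, as given below.

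The fall of the 4 genes depended on how transcript length and GC content were treated. For each gene, the deviation of log2 CPM from its mean over the libraries was taken. Per library, a smooth trend of these deviations against the length and GC content of the longest transcript was fitted and removed. This was done over the 15116 genes that passed the filter and had such an annotation. Without removal the median log2 fold change over all tested genes was -0.01, and after it 0.08. Gria1 then had a log2 fold change of 0.11 (SE 0.072, edgeR adjusted p = 0.198), Gria3 of 0.04 (SE 0.083, edgeR adjusted p = 0.692) and Gria4 of -0.15 (SE 0.089, edgeR adjusted p = 0.164). None of these 3 passed the threshold. Of the 15116 genes in this fit, 5461 were higher and 4140 lower. Gria2, with the longest and most AT-rich transcript of the 4, went from -0.70 to 0.79 (SE 0.060, edgeR adjusted p = 9.761e-08), a call in the opposite direction.

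Removing the trend in length alone gave 0.07 for Gria1, 0.48 for Gria2, -0.28 for Gria3 and -0.36 for Gria4, of which Gria2 passed as higher (edgeR adjusted p = 6.48e-05) and Gria3 and Gria4 as lower (edgeR adjusted p = 0.00379 and 0.00159). With GC alone removed the values were -0.19, 0.01, -0.08 and -0.39, and Gria4 passed as lower (edgeR adjusted p = 0.00188). Of all 15116 genes, 5381 were higher and 4060 lower with length alone removed, and 5745 and 4631 with GC alone removed. When the trend was fitted on the coding sequence, in which the 4 genes are alike in length, all 4 lay near 0: 0.08 for Gria1, -0.01 for Gria2, -0.01 for Gria3 and -0.13 for Gria4 (edgeR adjusted p 0.178 to 0.951). The median over all genes of that fit was 0.08, and of its 14135 genes 5150 were higher and 4126 lower. Gria2 was higher past the threshold where the length of its whole transcript entered the trend, alone or with GC. For Gria4 in the first set a fall remained under both forms of the trend, at -0.32 with transcript length and GC (edgeR adjusted p = 0.00278) and -0.27 with the coding sequence (edgeR adjusted p = 0.00941), whereas the second set gave 0.08 and 0.05. Over all genes, 4313 of 15116 were lower in the first set with the transcript trend removed, and 4110 of 14135 with the coding trend removed. The difference of Gria4 between the sets under these 2 trends was 0.40 (edgeR adjusted p = 0.0269) and 0.33 (edgeR adjusted p = 0.073). The plot of effects by fit sets these values side by side.

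**Figure D2:**
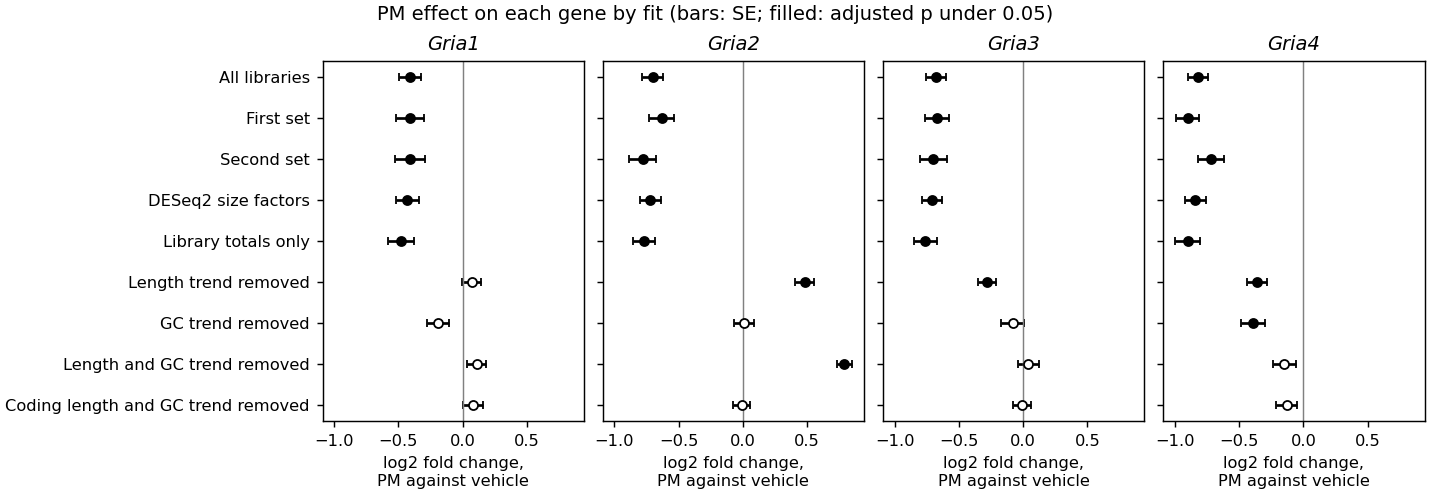
Log2 fold change of PM against vehicle for each gene (x axis) under 9 fits (y axis), with bars for the SE and filled points for an edgeR adjusted p under 0.05. All 4 genes are below 0 in the fits without a trend removed, under TMM and both other scalings. With the length and GC trend removed Gria2 is at 0.79, Gria1 at 0.11, Gria3 at 0.04 and Gria4 at -0.15.

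Scaling of the libraries mattered less. With DESeq2 size factors, upper quartile scaling or library totals alone in the same edgeR fit, and with the DESeq2 Wald test, all 4 genes were lower past the threshold. What the length and GC trend stands for in these libraries was not tested.

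Levels were compared between the genes only per length of sequence. Per kilobase of annotated exon, vehicle libraries held 219.6 ± 8.16 CPM of Gria1, 79.3 ± 4.95 of Gria2, 31.0 ± 1.46 of Gria3 and 14.0 ± 0.774 of Gria4 (SD, n = 5). In PM the levels per kilobase were 164 ± 20.1 CPM for Gria1, 48.6 ± 5.39 for Gria2, 19.3 ± 1.47 for Gria3 and 8.01 ± 0.673 for Gria4 (SD, n = 6). The order was the same in both groups, and no library of one gene reached the range of its neighbour in that order. Scaled by the longest coding transcript instead, the order held, at 239, 119, 58.9 and 16.2 CPM per kilobase in vehicle and 179, 72.8, 36.6 and 9.28 in PM. Gria2 and Gria3 then stood nearer to Gria1 and farther from Gria4.

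Whether the 4 genes changed by the same amount was asked with ratios of counts within a library, which need no scaling between libraries. The ratio of Gria1 to Gria2 counts was 1.12, 1.02 and 1.15 in vehicle replicates 1 to 3 and 1.07 and 1.04 in replicates 4 and 5. In PM it was 1.31, 1.29 and 1.20 in replicates 1 to 3 and 1.40, 1.28 and 1.40 in replicates 4 to 6. Every PM library had a higher ratio than every vehicle library. The geometric mean rose from 1.08 to 1.31, a log2 difference of 0.28 (exact permutation test of the libraries, two-sided, p = 0.00217, which is the smallest value possible with 5 and 6 libraries; adjusted p = 0.013 over 6 ratios, and 0.03 when permuted within sets).

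Gria1 also fell less than Gria3 and Gria4 by this measure, with overlap between the groups. The ratio of Gria1 to Gria3 went from 4.34 to 5.21 (log2 difference 0.26, exact permutation p = 0.0195, adjusted p = 0.039) and that of Gria1 to Gria4 from 15.0 to 19.6 (log2 difference 0.38, exact permutation p = 0.013, adjusted p = 0.039). Permuted within sets, these 2 had adjusted p of 0.07 and 0.06 and no longer passed. Among Gria2, Gria3 and Gria4 the ratios changed by -0.02 for Gria2 to Gria3, 0.10 for Gria2 to Gria4 and 0.12 for Gria3 to Gria4 on the log2 scale (exact permutation, adjusted p = 0.781, 0.605 and 0.364), with overlapping groups. A ratio shows unequal change only, and these ratios are of counts from transcripts that differ in length and GC content. With the trend in transcript length and GC removed, the log2 fold changes of Gria1 and Gria2 were 0.11 and 0.79, the opposite order. With the coding trend removed they were 0.08 and -0.01, which is not the opposite order.

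As shares of the counts of the 4 genes, not scaled by length, Gria1 rose from 44.9% ± 1.13 to 49.9% ± 1.55 and Gria2 was 41.7% ± 1.16 in vehicle and 38.0% ± 1.23 in PM, each without overlap between the groups. Gria3 held 10.4% ± 0.418 and 9.60% ± 0.883, and Gria4 3.00% ± 0.250 and 2.57% ± 0.399 (SD, n = 5 and 6), with overlap. The plot of shares and of the Gria1 to Gria2 ratio shows them for each library.

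**Figure D3:**
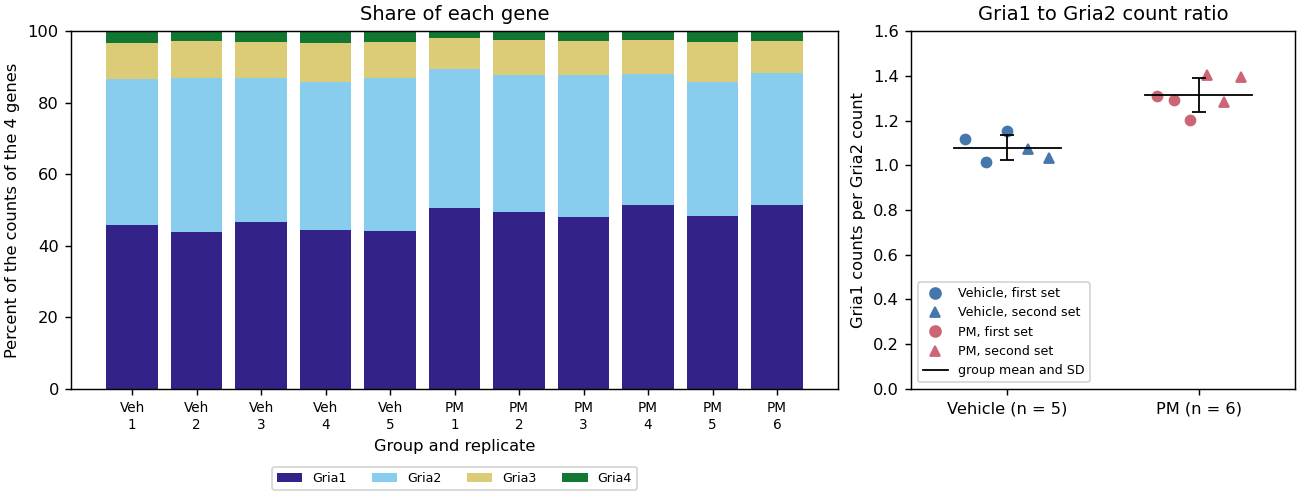
Left, percent of the counts of the 4 genes taken by each gene in each library, without length scaling; right, Gria1 counts per Gria2 count in each library with the arithmetic mean and SD of each group (n = 5 and 6; first set circles, second set triangles; the axis starts at 0). The ratio is at most 1.15 in vehicle and at least 1.20 in PM libraries.

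The genes whose levels ran most like those of the members were found by Pearson's r of log2 CPM over the 11 libraries, among the 10104 tested genes that averaged 10 CPM or more, and the 3 highest for each member are given as a description. The 2 groups are apart for every one of them, so r carries the difference between groups. For Gria1 they were Dyrk2 (r = 0.982) and Abl2 (0.981), both protein kinases, and Susd6 (0.970). Gria2 ran with Kdm7a, a histone demethylase (0.995), Yod1, a deubiquitinase (0.994), and Sbno1 (0.991). Spred2 (0.995), the kinase gene Stk35 (0.994) and S100pbp (0.994) were nearest to Gria3. For Gria4 they were Scarna13, a small Cajal body RNA (0.991), Ccdc66 (0.990) and Ptprd, a receptor phosphatase of synapses (0.989). The size of the fall differed among them: Abl2 had a log2 fold change of -0.60 and Ptprd of -0.83, but Dyrk2 of -1.34 and Scarna13, at 63.8 ± 7.67 CPM in vehicle (SD, n = 5) and 0.324 ± 0.309 CPM in PM (SD, n = 6), of -7.65.

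AMPA receptors at synapses carry auxiliary subunits that set their gating and surface delivery, and their genes were called in both directions. Of 16 auxiliary subunit genes tested, 6 were higher, 6 lower and 4 did not pass, near the 34.1% higher and 34.3% lower among all tested genes. Their median log2 fold change was -0.05 against -0.01 over all tested genes. Shisa6, which keeps receptors in place at the synapse, fell from 459 ± 37.4 to 112 ± 22.9 CPM (4.06-fold, log2 fold change -2.02, SE 0.133, edgeR adjusted p = 1.929e-08). Frrs1l, needed for receptor assembly, fell 2.79-fold from 382 ± 17.7 to 139 ± 46.9 CPM, and Shisa9, which changes the desensitization of receptors, had a log2 fold change of -1.13 (edgeR adjusted p = 1.347e-06 and 1.034e-06). Cnih2, a cornichon protein that slows channel closing, rose from 226 ± 32.9 to 461.7 ± 46.0 CPM (2.05-fold, log2 fold change 1.03, SE 0.108, edgeR adjusted p = 1.337e-06).

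Set beside the members, Shisa6, Shisa9 and Frrs1l thus had lower log2 fold changes than any of the 4 pore subunits, and Cnih2 had the opposite direction; differences between genes were not tested here. With the length and GC trend removed, Shisa6 (-1.27), Shisa9 (-0.83) and Frrs1l (-0.52) were still lower past the threshold while Cnih2 was at 0.28 (edgeR adjusted p = 0.0619). The list then had 1 higher, 9 lower and 6 not passed, beside 5461 higher and 4140 lower of 15116 genes tested. With the coding trend removed the list had 3 higher, 8 lower and 5 not passed, beside 5150 higher and 4126 lower of 14135 genes. Cnih2 then passed as higher at 0.45 (edgeR adjusted p = 0.00109). No test of the list against other genes was made.

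Of 21 genes tested that anchor AMPA receptors or move them to and from the synapse, 7 were higher, 7 lower and 7 did not pass (median log2 fold change -0.16), again near the 34.1% and 34.3% of all tested genes. Dlg4, which encodes the scaffold PSD-95, rose from 559 ± 31.2 to 1149 ± 38.3 CPM (log2 fold change 1.04, edgeR adjusted p = 2.277e-08). Pick1 and Grip1, whose products bind the same end of GluA2 and GluA3, moved apart: Pick1 rose 2.09-fold from 18.6 ± 1.68 CPM (edgeR adjusted p = 2.36e-06) and Grip1 fell 2.21-fold to 22.9 ± 3.94 CPM (edgeR adjusted p = 1.076e-06). Prkca, a kinase that phosphorylates that end, fell 2.45-fold from 642 ± 54.0 CPM (edgeR adjusted p = 1.959e-07). Once the trend in length and GC was taken out, Dlg4 (1.80), Pick1 (0.77) and Grip1 (-0.59) kept their direction and their call, and Prkca was at -0.22 (edgeR adjusted p = 0.0706). Under the coding trend Prkca was at -0.99 and passed as lower (edgeR adjusted p = 1.82e-06).

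The enzymes that edit RNA bear on Gria2 through its Q/R site. Adarb1, which encodes ADAR2, the enzyme that edits that site, was at 159 ± 12.4 CPM in vehicle (SD, n = 5) and 143 ± 15.2 CPM in PM (SD, n = 6), with overlapping groups (log2 fold change -0.13, SE 0.081, edgeR adjusted p = 0.157). Adar, which encodes ADAR1, was at 148 ± 12.0 and 145 ± 19.5 CPM (log2 fold change -0.05, edgeR adjusted p = 0.699). Adarb2, whose product has no known editing activity, fell from 48.9 ± 5.00 to 23.7 ± 2.02 CPM (log2 fold change -1.04, edgeR adjusted p = 3.931e-07). With the transcript trend taken out, Adarb1 (0.32, edgeR adjusted p = 0.00327) and Adar (0.25, edgeR adjusted p = 0.00514) were higher and Adarb2 (-0.21) did not pass. Removing the coding trend instead left Adarb1 at -0.12 (edgeR adjusted p = 0.219), Adar higher at 0.45 (edgeR adjusted p = 3.178e-05) and Adarb2 lower at -0.99 (edgeR adjusted p = 3.286e-08).

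Among 14 genes of the other ionotropic glutamate receptors, NMDA and kainate receptors among them, 9 were lower, 1 was higher and 4 did not pass. Over all tested genes 34.3% were lower and 34.1% higher. The median log2 fold change of the 14 was -0.70, against -0.01 over all tested genes. The 4 members, at -0.41 to -0.82, lay around the median of the 14. Grin2a (-3.39), Grin2b (-2.69) and Grik2 (-1.48) fell, and their values lay beyond those of the members. Grin2c rose (0.87). After removal of the transcript trend, 7 of the 14 were lower and 1 higher. Over all 15116 genes tested in that fit, 4140 were lower and 5461 higher. Grin2a was then at -1.79 and Grin2b at -0.75, while Grik2 was at -0.11 and no longer passed (edgeR adjusted p = 0.244). Removal of the coding trend left Grik2 at -0.79 (edgeR adjusted p = 6.793e-07). The plot of the auxiliary subunit, trafficking and editing lists gives every gene of those lists.

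**Figure D4:**
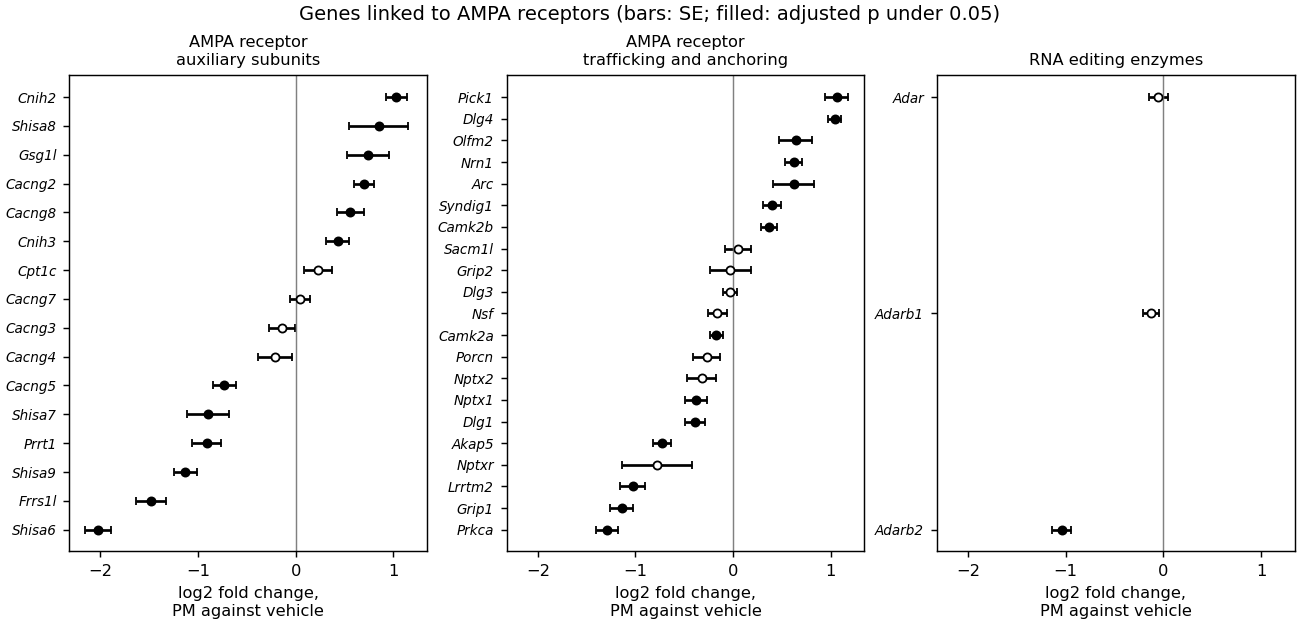
Log2 fold change of PM against vehicle (x axis) for each tested gene of 3 lists, with bars for the SE and filled points for an edgeR adjusted p under 0.05, from the fit without trend removal. Auxiliary subunit and trafficking genes lie on both sides of 0, from Shisa6 at -2.02 to Pick1 at 1.06, and of the 3 editing enzyme genes Adarb2 is lower past the threshold.

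Marker genes of the cell types that hold these receptors, and of others in the tissue, moved as well, and their part in the results was not tested. The counts below stand beside 34.1% higher and 34.3% lower among all tested genes. Of 9 pyramidal neuron markers, 4 were higher, 2 lower (Neurod6 among them) and 3 did not pass, with a summed level of 3370 to 3733 CPM in vehicle and 4114 to 5158 CPM in PM libraries. Dentate granule cell markers split 3 higher, 3 lower and 2 not passed (433 to 576 against 291 to 483 CPM). Interneuron markers split 2 higher, 4 lower and 4 not passed (699 to 771 against 541 to 730.4 CPM). Pvalb, the parvalbumin gene of cells known for GluA4, was among the 2 higher, at 10.8 to 18.6 CPM in vehicle and 27.7 to 63.0 CPM in PM. Gad2 was among the 4 lower, at 181 to 202 CPM in vehicle and 53.6 to 119 CPM in PM. Each neuronal list held calls in both directions, while the summed pyramidal level was higher in every PM library than in any vehicle library. The marker lists were not examined with a length or GC trend removed.

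Markers of glia and vessels were mostly higher or not past the threshold, apart from astrocytes and oligodendrocyte precursors. Of all tested genes, 34.1% were higher and 34.3% lower. Among 9 microglia markers 7 were higher and none lower (summed level 225 to 246 against 292 to 471 CPM), among 8 oligodendrocyte markers 5 were higher and none lower (3773 to 4712 against 4272 to 9918 CPM), and among 8 endothelial markers 5 were higher and none lower (148 to 174 against 193 to 344 CPM). Astrocyte markers had 5 higher, 3 lower and 2 not passed (7231 to 7532 against 3666 to 7013 CPM), and those of oligodendrocyte precursors 1 higher, 3 lower and 3 not passed (323 to 341 against 252 to 354 CPM). For the choroid plexus 1 of 7 markers was lower, none was higher, and the summed level ranged from 72.6 to 1275 CPM in vehicle and from 33.4 to 2635 CPM in PM. Of 6 markers of pituitary and blood, Gh, Prl and Pomc were higher in PM (summed level 0.648 to 1.32 against 2.41 to 21.8 CPM), and Prl was at 0 in every vehicle library. The haemoglobin genes Hba-a1, Hba-a2 and Hbb-bs were at 0 in all 11 libraries. A row at 0 in every library cannot tell absent RNA from reads not assigned to it, so these rows do not measure blood.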

How the data were processed

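RNA of mouse hippocampus was measured in 11 libraries. The deposited files hold raw read counts, 1 value for each gene symbol. HTSeq 0.9.1, Picard 2.9.2, SAMtools 1.9, STAR (no version), Trimmomatic 0.36 and FastQC 0.11.9 are named in the submitters' processing notes, with the builds mm10 and hg19. The labels' extract protocol describes removal of ribosomal RNA, while their molecule field names polyA RNA. HTSeq summary rows were left out.

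Counts were fitted with edgeR 4.0.16 in R 4.3.3 (TMM scaling, filterByExpr with a minimum count of 10, robust quasi-likelihood test, set as covariate, two-sided, Benjamini-Hochberg adjustment over all 15713 tested genes, threshold 0.05). The effect per set and its difference came from contrasts in a fit with 1 level for each set of each group. The SE of a log2 fold change is its absolute value over the root of F. Length and GC trends were natural splines with 5 degrees of freedom, removed through offsets, with lengths from GENCODE M21, to which 95.7% of symbols matched. DESeq2 1.42.0 and other alternatives are given in the closing section. Scripts were tested on simulated data.

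Groups follow the treatment labels. A count of 0 allows up to 3 counts, 0.169 to 0.499 CPM by library, for counting error only. No 2 libraries agreed within sampling noise (the closest pair had a chi-square per degree of freedom of 2.01). Named genes were the members, the 3 genes most like each, and of each list up to 4 of smallest p with any called against most of the list. Some list genes are not reported by name here. Members and lists were chosen with earlier results of these data known.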

Additional observations from a re-analysis of the deposited data

How the results depend on the processing

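The numbers of the replicates showed no pairing of the libraries: same-numbered libraries had correlations of -0.146 to -0.0282 between their deviations from the mean of their group within their set. Differently numbered libraries were not set beside them. The 2 vehicle libraries of the second set deviate by equal and opposite amounts, so the check is limited there. With a replicate block the log2 fold changes were -0.44 for Gria1, -0.70 for Gria2, -0.67 for Gria3 and -0.84 for Gria4, all past the threshold, and 9565 genes were called against 10750 without it. Over 27 alternatives of the comparison of all libraries, the calls of the 4 genes changed only where a length or GC trend was removed. Together with the replicate block, that trend gave 0.09, 0.80, 0.05 and -0.17 for Gria1 to Gria4, and without the block 0.11, 0.79, 0.04 and -0.15. The trends in length alone, in GC alone and in coding length and GC were added after seeing the data. Length alone gave 0.07 for Gria1 and 0.48 for Gria2, GC alone -0.19, 0.01 and -0.08 for Gria1 to Gria3, and the coding trend 0.08, -0.01, -0.01 and -0.13 for Gria1 to Gria4. In the first set the transcript trend gave 0.10 for Gria1, 0.78 for Gria2 and -0.09 for Gria3 and the coding trend 0.12, -0.01 and -0.06. In the second set they gave 0.12, 0.80, 0.21 and 0.08, and 0.02, 0.01, 0.06 and 0.05, for Gria1 to Gria4. For the difference between sets the transcript trend gave 0.02 for Gria2, 0.30 for Gria3 and 0.40 for Gria4, the coding trend -0.10 for Gria1, 0.02 for Gria2 and 0.13 for Gria3, and DESeq2 size factors 0.01 for Gria3. The cause was not tested.

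Leaving out each library in turn gave -0.48 to -0.36 for Gria1, -0.76 to -0.66 for Gria2, -0.71 to -0.65 for Gria3 and -0.87 to -0.78 for Gria4, all past the threshold. In the second set Gria1 ranged from -0.45 to -0.34 and missed it without vehicle replicate 5. The difference between sets ranged from -0.10 to 0.13 for Gria1 and -0.10 to 0.03 for Gria3, and 2801 (without vehicle replicate 5) to 5982 genes were called for it against 4851 with all libraries. The log2 ratio difference of Gria1 to Gria3 ranged from 0.23 to 0.32, of Gria1 to Gria4 from 0.30 to 0.45 and of Gria2 to Gria3 from -0.06 to 0.03, and the adjusted p of the first 2 reached 0.0667 at most. Fewer libraries allow fewer splits, which raises the smallest p. Permuted within sets, the 0.26 and 0.38 of these 2 ratios did not pass. In the second set alone Gria1 to Gria2 was at 0.37 and Gria2 to Gria4 at -0.06, and in the first alone Gria2 to Gria3 was at 0.04. Levels by RefSeq length were not run, since that table gives gene spans, and the scaling without Rn45s, Lars2 and Malat1 left out no mitochondrial gene because none was found among the symbols used. The depth of the shallowest library, a vehicle library of the second set, limits Gria4 most, at 552 counts.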

Other observations

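Within each group, the second set was also set against the first for the 4 AMPA receptor genes. The log2 differences were -0.08 for Gria1, -0.18 for Gria2, -0.02 for Gria3 and 0.17 for Gria4 in PM (edgeR adjusted p = 0.547, 0.138, 0.852 and 0.122). In vehicle, with 3 and 2 libraries, Gria1 was at -0.08, Gria2 at -0.03 and Gria4 at -0.01, and the means of Gria3 were 306 and 305.6 CPM (edgeR adjusted p = 0.997 or higher). Gria4 was the 1 gene of the 4 with a higher mean in the second PM set, at 53.5 ± 3.70 against 47.5 ± 2.02 CPM (SD, n = 3 and 3).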
